A study of Mus musculus with 4 samples.

Results

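Late distal and connecting tubule cells were defined in kidney single-cell libraries by the transcripts of 2 cytosolic calcium-binding proteins, Calb1 and S100g. Members were chosen by their counts of these genes and of 3 others. A barcode was a member if it had 300 or more genes, at most 50% mitochondrial UMIs, 3 or more Calb1 UMIs, 3 or more S100g UMIs and no fewer S100g than Slc12a3 UMIs. It could hold at most 2 UMIs of Slc12a1, the cotransporter gene of the thick ascending limb, and at most 10 UMIs of Slc34a1, a phosphate cotransporter gene of the proximal tubule. This gave 844 of the 41076 barcodes that passed the first pair of limits, out of 52478 deposited.

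The mice were C57BL/6 (C57BL/6J in the protocol) and 10 weeks of age, and they received recombinant human FGF23, 10 µg per mouse, intraperitoneally. Kidneys were collected at 1 h, 4 h or 12 h, and the control library was labelled 0 h with a dose of 0 µg. The deposited matrix of that control is named as saline at 1 h, and the labels do not settle whether its mice were injected. Each library held kidneys of males and females digested together, and the number of animals behind it is not given in the sources used here. Dissociation was followed by magnetic removal of annexin V-binding dead cells, so only cells that came through both steps were measured. There was 1 library in each group, with 148, 160, 288 and 248 members at 0, 1, 4 and 12 h. No difference between libraries therefore has a replicate check, and no p-value was computed. Intervals are at 95% and cover counting error only. The 1, 4 and 12 h comparisons all use the same 0 h library.

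The late distal convoluted and connecting tubule is the segment where calcium reabsorption is under hormonal control. Calcium enters through the channel TRPV5, is carried across the cell by calbindins and leaves through the sodium-calcium exchanger NCX1 (gene Slc8a1) and the plasma membrane calcium pump. The same cells carry alpha-Klotho (gene Kl), the co-receptor with which FGF receptors bind the phosphate-regulating hormone FGF23, and this receptor complex signals through the ERK cascade. Further along the nephron the segment gives way to the collecting duct, where principal cells carry the water channel gene Aqp2 and intercalated cells carry proton pump genes.

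The libraries held 12245 to 13813 barcodes and 139675666 to 158838728 UMIs. Members had median depths of 13793.5, 14462.5, 14618.5 and 12199.5 UMIs at 0, 1, 4 and 12 h, and their summed UMIs were 2050822, 2360080, 4576691 and 3175291. The median mitochondrial share of members was 35.1%, 34.5%, 29.4% and 31.3% in the same order. Barcodes called doublets were kept, and they made up 12.2%, 5%, 10.4% and 9.27% of members against 7.25% to 8.62% of all kept barcodes. No barcode sequence was shared between libraries among members, and 36 to 57 were shared by each pair of libraries among all barcodes. Sex-linked transcripts called 57, 71, 84 and 73 members female and 53, 61, 120 and 83 male.

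The members carried the markers of the segment that the rule did not use. Summed over 8 such genes (Slc8a1, Trpv5, Trpv6, Klk1, Scnn1b, Scnn1g, Kl and Atp2b4), the level was 27921, 35070, 38522 and 36694 CPM (UMIs scaled to a common total of 1000000 over the summed cells) at 0, 1, 4 and 12 h. In Slc12a3-led distal cells the same sum was 3047 CPM at 0 h and in proximal tubule cells it was 247 CPM. Most of the members' sum was Klk1. The other 7 genes summed to 3208 CPM in members at 0 h, against 821 CPM in Slc12a3-led cells and 225 CPM in proximal cells, and Kl was the largest part of each. Without Klk1 the members' sums at 1, 4 and 12 h were 3516, 2943 and 2507 CPM, and those of Slc12a3-led cells 811, 685 and 475 CPM. Gene by gene at 0 h, Trpv5 was at 85.3 CPM in members and 0.518 CPM in Slc12a3-led cells, Slc8a1 at 144 and 17.6 CPM, and Kl at 2237 and 734 CPM. Slc12a3-led distal cells were barcodes with 3 or more Slc12a3 UMIs and more Slc12a3 than S100g UMIs, and they numbered 1552. Trpv5 had a UMI in 58.1% of members at 0 h, and in 36.6% (28.4 to 45.3) after each cell was thinned to 5000 UMIs, which left out 14 of 148 cells. In thinned Slc12a3-led cells the Trpv5 share was 0 of 320 at 0 h, which allows up to 0.938% by 3 counts (exact upper limit 1.15%), and unthinned it was 0.517%, at a median depth of 10238 UMIs. These limits are on cells with a UMI, not on cells that express the gene. No endothelial cell had a Trpv5 UMI at 0 h, at a median depth of 2494 UMIs. Calb1, S100g and Slc12a3 were used by the rule, so their level against other cells is no finding. Just inside the rule lay 24 members with exactly 3 Calb1 UMIs, with a median of 75.5 S100g UMIs. Just outside lay 32 barcodes with 2 Calb1 UMIs, with a median of 21.5 S100g UMIs, and 145 with more than 10 Slc34a1 UMIs.

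Members made up 1.46% of the kept barcodes of the 0 h library (interval 1.24 to 1.72) and 1.69% in the 1 h library (interval 1.44 to 1.97). In the 4 h library they made up 2.59% (interval 2.30 to 2.90), and in the 12 h library 2.39% (interval 2.11 to 2.71). The intervals of the 0 and 1 h libraries overlapped, and both lay below those of the 4 and 12 h libraries. When every barcode was first thinned to 5000 UMIs the shares were 1.85%, 1.86%, 2.70% and 2.61%. The mitochondrial limit enters such a share too, and with a limit of 25% the shares were 0.611%, 0.517%, 1.40% and 1.30%.

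The members spanned markers from the distal convoluted tubule to the collecting duct. Cells with 3 or more Slc12a3 UMIs, the transcript of the thiazide-sensitive cotransporter of the distal convoluted tubule, made up 43.2%, 41.3%, 33.3% and 39.9% of members at 0, 1, 4 and 12 h. Cells with 3 or more Aqp2 UMIs and at most 2 of Slc12a3 made up 36.5%, 31.3%, 36.5% and 25.4%. The remaining cells, with neither, made up 20.3%, 27.5%, 30.2% and 34.7%. These 3 strata are called Slc12a3-positive, Aqp2-positive and double-low members below. At 0 h the Aqp2-positive stratum held 14 female-called and 33 male-called cells, against 30 and 12 in the Slc12a3-positive stratum. At 1 h the same counts were 28 and 14 against 24 and 31, so the sexes and the strata were mixed differently in these libraries. Median mitochondrial shares were 29.1%, 30.6%, 21.1% and 25.8% in Aqp2-positive members and 39.9%, 37.5%, 35.6% and 35.7% in Slc12a3-positive members.

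**Figure D1:**
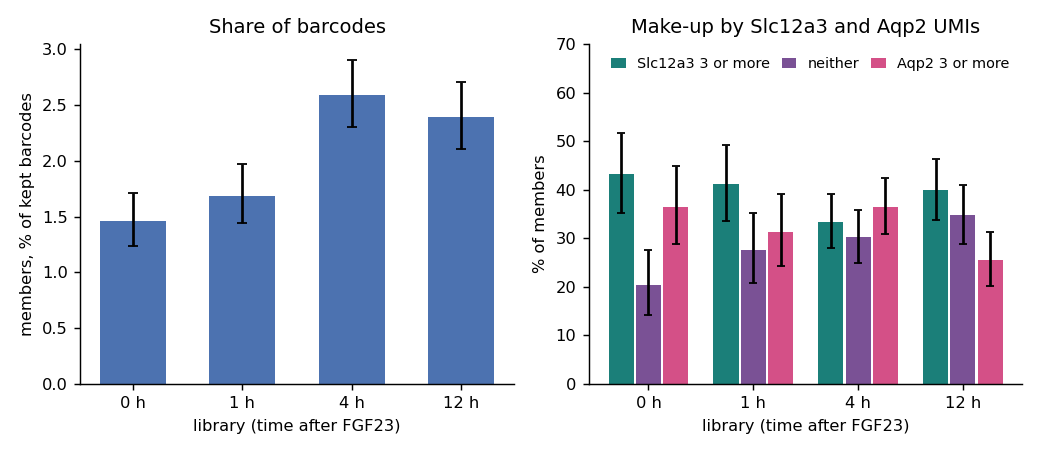
Left, members as a percent of kept barcodes in each library; right, percent of members in each stratum (Slc12a3-positive, double-low as neither, Aqp2-positive); error bars in both are exact Clopper-Pearson 95% intervals. In these plots the member share is 1.46% at 0 h and 2.59% at 4 h, and the double-low stratum goes from 20.3% to 34.7% between 0 and 12 h.

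Some transcripts of other cell types were found in members, and their summed levels differed between libraries. Neutrophil markers (5 genes) summed to 370.1 CPM in the control and to 6.78, 0.874 and 2.83 CPM in the 1, 4 and 12 h libraries. Intercalated cell markers (6) summed to 706, 795, 1156 and 473 CPM, and principal cell markers (6) to 4502, 2588, 4009 and 3127 CPM. Proximal tubule markers (9) summed to 1163, 850.4, 1363 and 2876 CPM, and endothelial markers (7) to 40.5, 10.2, 58.6 and 151 CPM. The proximal sum includes Kap, and 1 cell held 58.0% of the Kap UMIs at 4 h and 72.7% at 12 h. Members with 3 or more UMIs of Atp6v1g3, an intercalated cell proton pump subunit gene, numbered 22, 17, 49 and 12. The part of these transcripts in the results below was not tested, and values without Atp6v1g3-positive members are given beside some of them.

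At 1 h, 18 of 7174 genes were higher than at 0 h (0.251%) and 88 were lower (1.23%). At 4 h, 147 of 8502 were higher (1.73%) and 56 lower (0.659%), and at 12 h, 98 of 7763 were higher (1.26%) and 76 lower (0.979%). A gene counted here, and is written below as having risen or fallen, if its summed CPM differed at least 2-fold from 0 h, its counting interval excluded no difference, and it had at least 50 UMIs over both libraries. With mitochondrial UMIs taken out of the total, the split at 4 h was 120 higher and 90 lower. The median log2 ratio over all tested genes was -0.06, 0.04 and -0.04 at 1, 4 and 12 h. Counts from the gene lists below are to be read beside the shares over all tested genes given here.

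Over all members, no gene of the calcium list passed 2-fold at any time. Over all tested genes at most 1.73% were higher and at most 1.23% lower at any time, so 0 from a list this short says little. This list had 14 genes of calcium entry, buffering, exit and control, of which 13 were measured, and its median log2 ratio was 0.04, 0.00 and 0.07 at 1, 4 and 12 h. Calb1 (ENSMUSG00000028222, chromosome 4, 15881264 to 15908064, plus strand, GRCm38) encodes the larger calbindin. It was at 7563, 7789, 5626 and 4797 CPM at 0, 1, 4 and 12 h, with a 4 h log2 ratio of -0.43 (-0.46 to -0.40) and a 12 h ratio of -0.66 (-0.69 to -0.62). At 12 h the ratio was -1.09 in female-called and -0.05 in male-called members. S100g (ENSMUSG00000040808, X chromosome, 162961992 to 162964599, minus strand), which encodes the smaller calbindin, was at 35813, 34604, 35670.5 and 40778 CPM. Its log2 ratio was between -0.05 and 0.19 at the 3 times. Both genes were in the rule in every library, so a cell below its minimum counts was no member. Their ratios over time therefore describe only the cells that the rule kept. Within one sex or stratum some genes of the list did pass. In male-called members Atp2b4 (1.09) and Pth1r (1.01) were higher at 1 h, Slc8a1 (1.23) at 4 h and Vdr (1.06) at 12 h. In female-called members Atp2b4 was lower at 4 h (-1.08) and Calb1 at 12 h. At 1 h Atp2b4, Pth1r and Klk1 were higher in Aqp2-positive members, and Calb1 was lower in double-low members (-1.32).

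The entry channel gene Trpv5 (ENSMUSG00000036899, chromosome 6, 41652173 to 41680769, minus strand) was read with 175, 226, 321 and 208 UMIs at 0, 1, 4 and 12 h. These were 85.3, 95.8, 70.1 and 65.5 CPM, with log2 ratios of 0.17 (-0.12 to 0.46), -0.28 (-0.55 to -0.01) and -0.38 (-0.68 to -0.08). The related channel gene Trpv6 had 14, 17, 33 and 16 UMIs. On the exit side, Slc8a1 was at 144, 147, 213 and 177 CPM, with a log2 ratio of 0.56 (0.37 to 0.75) at 4 h. The pump gene Atp2b1 was at 95.6, 80.5, 95.5 and 85.98 CPM, and Atp2b4, a second pump gene, was at 126, 178, 113 and 119 CPM. Klk1, the kallikrein gene of this segment, was at 24712, 31554, 35579.9 and 34188 CPM, with log2 ratios of 0.35, 0.53 and 0.47. Klk1 belongs to a family of close copies between which the counting may split reads. Thus the 1 h library was highest of the 4 for Trpv5 and Atp2b4, and the 4 h library for Slc8a1 and Klk1, each by less than 2-fold from 0 h.

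Of the hormone receptors that act on calcium transport, the vitamin D receptor gene Vdr was at 333, 388, 444 and 568 CPM at 0, 1, 4 and 12 h. Each later library was above the one before it, and the log2 ratio at 12 h was 0.77 (0.65 to 0.90), short of 2-fold. In Slc12a3-positive members it was 0.88 and in Aqp2-positive members 0.15. The parathyroid hormone receptor gene Pth1r was at 341, 397, 241 and 353 CPM. Cyp24a1, which encodes the enzyme that inactivates vitamin D, rose at 4 h from 4 to 53 UMIs, a log2 ratio of 2.57 (1.13 to 4.50), and 10 cells held 77.4% of its UMIs there. At 1 and 12 h it had 8 and 26 UMIs, under the UMI minimum. Without the highest cell of each library its ratio was 2.50 at 4 h and 2.36 at 12 h. After thinning, a Cyp24a1 UMI was found in 1.49%, 2.70%, 4.02% and 5.64% of members at 0, 1, 4 and 12 h. Thinned endothelial cells had 1.28%, 4.62%, 5.49% and 4.48%. The intervals overlapped at every time, so the member shares do not stand above those of endothelium. Across the whole vitamin D metabolism list of 9 genes, 4, 5 and 4 were tested at 1, 4 and 12 h, and the endocytic receptor gene Lrp2 rose at 12 h from 67 to 282 UMIs. Lrp2 is a proximal tubule gene and is itself part of the proximal marker sum, which was 1163 CPM at 0 h and 2876 CPM at 12 h. That sum also includes Kap, and 1 cell held 72.7% of the Kap UMIs at 12 h.

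No gene of the FGF23 receptor complex rose or fell, which says little for a list this short beside the small shares over all genes given above. The co-receptor gene Kl was at 2237, 2559, 1947 and 1550.1 CPM in members at 0, 1, 4 and 12 h. The log2 ratio was 0.19 (0.14 to 0.25), -0.20 (-0.25 to -0.15) and -0.53 (-0.59 to -0.47), so 12 h was the lowest library, within 2-fold of 0 h. Slc12a3-led cells had 734, 719, 592 and 394 CPM, below the members in all 4 libraries. Of the receptor genes, Fgfr1 was at 25.4, 41.1, 21.8 and 34.0 CPM and Fgfr2 at 38.5, 44.1, 43.9 and 29.9 CPM. Fgfr3 had 1, 4, 5 and 4 UMIs and Fgfr4 had 2, 0, 2 and 2 UMIs, too few to compare. Of this list of 14 genes 9 were tested, and the list median was 0.12, -0.05 and -0.35.

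**Figure D2:**
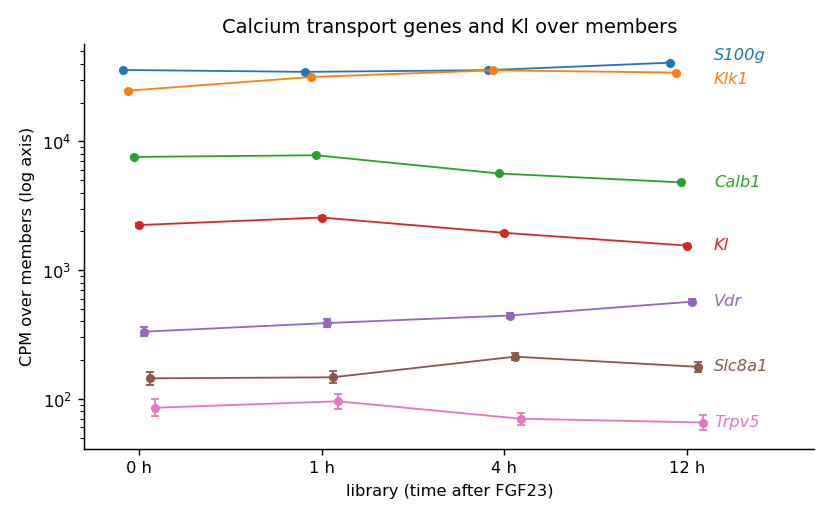
CPM on a log axis of S100g, Klk1, Calb1, Kl, Vdr, Slc8a1 and Trpv5 in the summed members of each library, with exact Poisson 95% intervals that cover counting error only. At 0 h S100g is at 35813 CPM and Trpv5 at 85.3 CPM, and every later value of the 7 genes lies within 2-fold of its own 0 h value.

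Sodium, potassium and magnesium handling showed a few falls. Of 24 sodium and potassium genes, 23 were tested, and Fxyd4 fell at 1 h, Klhl3 and Sgk1 at 4 h, and Sgk1 at 12 h. The list median was 0.04, -0.09 and -0.14. Over all tested genes 1.23%, 0.659% and 0.979% were lower at 1, 4 and 12 h, so 1 or 2 of 23 says little. With members of 3 or more Atp6v1g3 UMIs left out, 0 of 23 passed at 1 h, and Sgk1 was the 1 gene lower at 4 h and at 12 h. The subunits of the epithelial sodium channel did not pass: Scnn1a was at 282, 284, 255 and 213 CPM, Scnn1b at 323, 261, 313 and 357 CPM, and Scnn1g at 286, 267, 279.9 and 232 CPM. Sgk1 encodes the aldosterone-responsive kinase that raises sodium channel activity, and it had 404, 405, 303 and 128 UMIs at 0, 1, 4 and 12 h. Its level was 197, 172, 66.2 and 40.3 CPM, with log2 ratios of -0.20 (-0.40 to 0.00), -1.57 (-1.79 to -1.35) and -2.29 (-2.59 to -2.00). The 4 h ratio was -1.11 in Slc12a3-positive, -1.77 in double-low and -1.70 in Aqp2-positive members, and -0.27 in female-called and -2.42 in male-called members. At 12 h both sexes were lower, at -1.25 and -3.04, which was a condition for naming Sgk1 by size below.

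Klhl3, a substrate adaptor of the ubiquitin ligase that restrains Slc12a3 through WNK kinases, was at 204, 240.2, 97.5 and 129 CPM, and its log2 ratio at 4 h was -1.06 (-1.26 to -0.87), or -0.98 without Atp6v1g3-positive members. Its 1 h ratio was -0.26 for cells called female and 1.27 for cells called male. At 4 h Klhl3 met the limits for a fall in female-called but not in male-called members. By stratum it met them at 4 h only in double-low members. The share of Slc12a3-positive members was 43.2% at 0 h and 33.3% at 4 h beside it. Fxyd4, a regulator of the sodium pump in the collecting duct, was at 669, 275, 772 and 514 CPM, with a 1 h ratio of -1.28 (-1.42 to -1.14), or -0.99 without Atp6v1g3-positive members, short of 2-fold. Split by sex, that 1 h ratio was 0.15 for cells called female and -2.47 for cells called male. Aqp2 itself was at 1099, 533, 1309.7 and 718 CPM, and its 1 h ratio was -1.05. The principal cell marker sum, which includes Aqp2 and Fxyd4, was 2588 CPM at 1 h against 4502 CPM at 0 h.

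Of the magnesium list of 10 genes, 8 were tested and Egf fell at 4 and 12 h, with no other member of the list past 2-fold. Egf encodes the growth factor precursor that stimulates the magnesium channel TRPM6. It was at 284, 193, 81.5 and 72.1 CPM at 0, 1, 4 and 12 h, with log2 ratios of -0.56 (-0.74 to -0.38), -1.80 (-1.99 to -1.61) and -1.98 (-2.21 to -1.76). The 4 h ratio was -1.39, -1.90 and -1.24 in the Slc12a3-positive, double-low and Aqp2-positive strata, -1.78 in female-called and -1.24 in male-called members. A fall in both sexes at 4 h was a condition for naming Egf by size below. Of the strata, only Slc12a3-positive members met the limits for a fall at 4 h, and in double-low members Egf was under the UMI minimum. Among members with at most 25% mitochondrial UMIs the 4 h ratio was 0.66, the opposite sign. Trpm6 was at 69.7, 95.3, 54.4 and 39.1 CPM.

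Several immediate early genes, whose transcription factors and RNA-binding proteins ERK and stress signals switch on without new protein synthesis, were lower at 1 and 12 h than at 0 h. Of the 27 listed genes, 14 were tested at 1 h, where Fos, Jun, Junb, Btg2 and Zfp36 fell and none rose, with a list median of -0.81. At 4 h, 16 were tested, Ier3 and Ier5 rose, Nr4a1 fell, and the median was -0.50. At 12 h, 14 were tested, Ier3 rose, 9 fell (Egr1, Fos, Fosb, Jun, Junb, Ier2, Nr4a1, Klf6 and Zfp36) and the median was -1.36. The shares over all tested genes were 0.251%, 1.73% and 1.26% higher and 1.23%, 0.659% and 0.979% lower at 1, 4 and 12 h. By sex, the 1 h median was 0.24 over 10 tested genes in female-called members, with 1 higher (Egr1, 1.76) and 0 lower. In male-called members it was -1.96 over 11 genes, with 0 higher and 8 lower. By stratum, the 1 h median was -0.15 over 7 tested genes in Slc12a3-positive members and 0.47 over 5 in double-low members, with 1 higher (Egr1) and 0 lower in each. In Aqp2-positive members it was -0.85 over 12 genes, with 0 higher and 4 lower (Fos, Jun, Junb and Btg2). Without Atp6v1g3-positive members, 11 genes were tested at 1 h, with Egr1 higher, Fos, Jun and Junb lower and a median of -0.49. In that subset at 4 h, of 14 tested, Ier3 and Ier5 were higher and Fos, Jun, Btg2 and Zfp36 lower (median -0.46), and at 12 h, of 11 tested, 1 was higher and 7 lower.

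Egr1, which encodes a zinc finger factor induced by ERK, had 369, 503, 625 and 125 UMIs at 0, 1, 4 and 12 h. Its level was 179.9, 213, 137 and 39.4 CPM, with log2 ratios of 0.24 (0.05 to 0.44), -0.40 (-0.59 to -0.21) and -2.19 (-2.50 to -1.90). Over all members, then, the 1 h library was little above the 0 h library and the 12 h library was the lowest. The strata did not share this course. In Slc12a3-positive members Egr1 had 7, 90, 12 and 8 UMIs, or 8.47, 87.1, 8.77 and 6.58 CPM, and the 1 h ratio was 3.36 (2.26 to 4.72). In double-low members it had 11, 162, 28 and 4 UMIs, or 32.3, 242, 24.9 and 4.59 CPM, and the 1 h ratio was 2.90 (2.03 to 3.93). In both strata the 1 h library was the highest and the 12 h library the lowest.

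Aqp2-positive members held 351 of the 369 Egr1 UMIs at 0 h. Their level was 397, 382, 281 and 104 CPM in order of time, and the 1 h ratio was -0.06 (-0.29 to 0.18). Split further by sex, the Aqp2-positive 1 h ratio was 0.76 (0.29 to 1.25) for cells called female and -0.50 (-0.91 to -0.11) for those called male. In the Slc12a3-positive and double-low strata it was 2.87 and 2.90 in female-called cells and 3.41 and 2.96 in male-called cells. A few cells carried much of the transcript, since 10 cells held 72.9%, 40.8%, 56.6% and 88.8% of Egr1 UMIs at 0, 1, 4 and 12 h. Without members with 3 or more Atp6v1g3 UMIs, Egr1 was at 88.7, 206, 78.3 and 9.73 CPM, and the 1 h ratio, 1.22, passed 2-fold. Among members with at most 25% mitochondrial UMIs it was at 419 and 443 CPM at 0 and 1 h, and among the others at 97.7 and 169 CPM.

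Counted by cells, an Egr1 UMI was found in 24.3%, 63.1%, 27.8% and 7.66% of members at 0, 1, 4 and 12 h. After thinning to 5000 UMIs the shares were 17.9% (11.8 to 25.5), 46.6% (38.4 to 55.0), 22.1% (17.1 to 27.8) and 5.13% (2.49 to 9.23), with 14, 12, 39 and 53 shallower cells left out. Slc12a3-led cells had thinned shares of 11.9%, 88.7%, 44.6% and 5.63%. Thinned endothelial cells had an Egr1 UMI in 46.2% and 44.6% at 0 and 1 h, among the 78 and 65 cells deep enough, so endothelium gives no background for this gene.

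**Figure D3:**
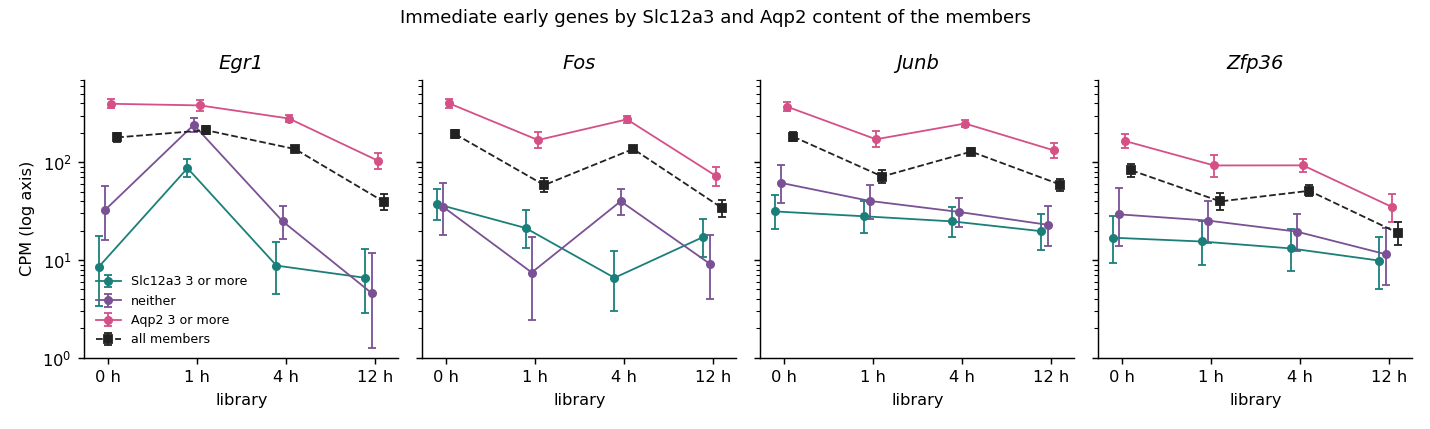
CPM on a log axis of Egr1, Fos, Junb and Zfp36 at 0, 1, 4 and 12 h in Slc12a3-positive, double-low and Aqp2-positive members (lines) and in all members (dashed), with exact Poisson 95% intervals. Egr1 at 1 h stands above 0 h in the Slc12a3-positive (87.1 against 8.47 CPM) and double-low strata, and Aqp2-positive members are the highest of the strata for Egr1 at every time.

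Fos, Junb and Zfp36 had their highest levels in the 0 h library. Fos, the AP-1 subunit gene, had 398, 138, 627 and 108 UMIs, or 194, 58.5, 137 and 34.0 CPM, with a 1 h ratio of -1.73 (-2.02 to -1.45). In Aqp2-positive members Fos was at 402, 169, 275 and 72.7 CPM. Junb, a second AP-1 subunit gene, was at 183, 71.6, 129 and 59.2 CPM, and its 1 h ratio was -1.35 (-1.62 to -1.09) in all members against -0.16 in Slc12a3-positive and -1.11 in Aqp2-positive members. Zfp36, whose protein destabilises AU-rich mRNAs, was at 82.9, 39.8, 51.1 and 18.9 CPM with a 1 h ratio of -1.06 (-1.44 to -0.69), and just short of 2-fold (-1.44 to -0.56) without Atp6v1g3-positive members. In female-called members the 1 h ratios of Fos, Junb and Zfp36 were 0.26, -0.11 and -0.08, and in male-called members -3.63, -2.41 and -2.41. Beside these stands the make-up above, with 33 of 53 male-called members in the Aqp2-positive stratum at 0 h. Within the Aqp2-positive stratum, Fos in cells called male had 302 UMIs at 0 h and 24 at 1 h, a ratio of -2.23 (-2.89 to -1.63), and in cells called female 38 and 87 UMIs, 0.26 (-0.30 to 0.85). Junb there was at -1.64 (-2.25 to -1.08) for cells called male and -0.69 (-1.16 to -0.21) for those called female. Zfp36 was at -1.93 (-3.03 to -0.99) and -0.59 (-1.24 to 0.06). For Fos the intervals of the sexes did not overlap within this stratum, and for Junb and Zfp36 they did, but they cover counting error only. These ratios rest on 33 and 14 male-called and 14 and 28 female-called cells at 0 and 1 h. Over all members, 10 cells held 64.1% and 89.1% of Fos UMIs at 0 and 1 h, and 1 cell held 31.9% at 1 h. For Junb 10 cells held 70.7% and 65.7%, and for Zfp36 72.4% and 64.9%. The difference between the sexes was not tested.

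Nr4a1, an orphan nuclear receptor gene, had 66, 47, 26 and 16 UMIs and fell at 4 h (-2.50, interval -3.22 to -1.83) and at 12 h (-2.68). Ier3, which encodes an ERK-binding survival factor, went the other way. It had 358, 560, 2191 and 1178 UMIs, or 175, 237, 479 and 371 CPM, with log2 ratios of 0.44 (0.25 to 0.64), 1.46 (1.29 to 1.62) and 1.09 (0.92 to 1.26). At 4 h the ratio was 1.37, 1.61 and 1.94 in the Slc12a3-positive, double-low and Aqp2-positive strata, and 0.39 in female-called and 2.34 in male-called members. Ier5 rose at 4 h, from 13 to 65 UMIs.

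Feedback and target genes of the ERK cascade gave most of the rises among listed genes at 1 h. Of 25 listed genes, 11 were tested at 1 h, where Dusp6, Nab2 and Spry2 rose and none fell. At 4 h, 15 were tested, Dusp6, Etv4 and Nab2 rose and Dusp1 fell. At 12 h, 15 were tested, Dusp6 and Etv4 rose and Dusp1 fell. The list medians were 0.43, 0.59 and 0.15. Over all tested genes 0.251%, 1.73% and 1.26% were higher and 1.23%, 0.659% and 0.979% lower at 1, 4 and 12 h. By sex, 6 genes were tested in each at 1 h, and the difference between the sexes was not tested. In female-called members Nab2 was higher and none lower (median 0.80), and in male-called members none was higher and Dusp1, Nab1 and Phlda1 were lower (median -0.86). At 4 h, 2 of 6 were higher in female-called members (Spry2 and Nab1, median 0.69), and of 11 in male-called members Dusp6 was higher and Dusp1 lower (median 0.29). Without Atp6v1g3-positive members, 6 of 15 were higher and 1 lower at 4 h. Dusp6 (ENSMUSG00000019960, chromosome 10, 99263231 to 99267489, plus strand) encodes the phosphatase that inactivates ERK in the cytosol. It had 14, 50, 113 and 79 UMIs at 0, 1, 4 and 12 h, or 6.83, 21.2, 24.7 and 24.9 CPM. All 3 later libraries were above 0 h, with log2 ratios of 1.63 (0.76 to 2.60), 1.85 (1.05 to 2.77) and 1.87 (1.03 to 2.80). The direction was the same in every stratum, with ratios of 0.76 to 2.17, 1.39 to 2.31 and 1.15 to 2.06 in order of time. It was also the same in female-called members (1.41, 2.15 and 2.17) and in male-called members (1.72, 1.70 and 1.77). At 4 h this agreement of the sexes was a condition for naming Dusp6 by size below, so it is no finding. These subset ratios divide the 14 UMIs of 0 h and so rest on few counts. By stratum Dusp6 met the limits for a rise only in Slc12a3-positive members, at 4 and 12 h. By sex it did so only in male-called members, at 4 h.

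Nab2 (ENSMUSG00000025402, chromosome 10, 127660918 to 127668568, minus strand) encodes a corepressor that binds Egr factors. It had 32, 98, 145 and 49 UMIs, or 15.6, 41.5, 31.7 and 15.4 CPM, with log2 ratios of 1.41 (0.82 to 2.04), 1.02 (0.46 to 1.62) and -0.02 (-0.69 to 0.67), so the 12 h level was close to that of 0 h. Its 1 h ratio was 0.42, 1.83 and 1.97 in Slc12a3-positive, double-low and Aqp2-positive members, 2.45 for cells called female and 0.54 for cells called male. Etv4 (ENSMUSG00000017724, chromosome 11, 101769742 to 101785371, minus strand), an Ets factor gene downstream of FGF receptors, had 7, 20, 70 and 65 UMIs and was at 3.41, 8.47, 15.3 and 20.5 CPM. Its 4 h ratio was 2.16 (1.05 to 3.53) and its 12 h ratio 2.58 (1.46 to 3.95). The related gene Etv5 had 7, 21, 42 and 37 UMIs, under the minimum at each time. Spry2, an inhibitor of receptor tyrosine kinase signalling, had 29, 70, 120 and 62 UMIs and rose at 1 h only, by 1.07 (0.43 to 1.75); at 4 h the ratio was 0.89. Dusp1, which encodes a nuclear phosphatase for stress kinases, had 62, 39, 48 and 22 UMIs, with a 4 h ratio of -1.53 (-2.10 to -0.96) and a 12 h ratio of -2.13.

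Among ligands of the EGF receptor family, Hbegf had 22, 68, 192 and 24 UMIs, or 10.7, 28.8, 42.0 and 7.56 CPM. It rose at 1 h (1.43, interval 0.71 to 2.19) and at 4 h (1.97, interval 1.33 to 2.68), and at 12 h it had too few UMIs to be tested. The 1 h ratio was 3.23 in female-called and 0.35 in male-called members. Btc, the betacellulin gene, had 58, 21, 130 and 43 UMIs and fell at 1 h (-1.67) and 12 h (-1.06), with a 4 h ratio of 0.01. Of 15 EGF receptor ligand and receptor genes, 7, 8 and 6 were tested, with Hbegf higher and Btc lower at 1 h, Hbegf higher and Egf lower at 4 h, and Btc and Egf lower at 12 h.

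Upstream sequence is shown for Tnfrsf12a, Dusp6 and Nab2, which with Hbegf were the listed genes higher at both 1 h and 4 h. Each window is the 250 bases before the RefSeq start on GRCm38.p6, in the gene's own direction, and such windows were found for 279 of 355 listed or named genes. On both strands 4 patterns were searched: AP-1 (TGANTCA, in 6.75% of 32851 promoter windows), the cAMP response element (TGACGTCA, 1.55%), Egr (GCGNGGGCG, 4.70%) and Ets (CCGGAAG, 6.91%). Capitals mark matches. The Tnfrsf12a window, at chr17:23677450-23677699 on the minus strand, has 1 Ets match followed by 2 Egr matches that overlap each other.
Tnfrsf12a: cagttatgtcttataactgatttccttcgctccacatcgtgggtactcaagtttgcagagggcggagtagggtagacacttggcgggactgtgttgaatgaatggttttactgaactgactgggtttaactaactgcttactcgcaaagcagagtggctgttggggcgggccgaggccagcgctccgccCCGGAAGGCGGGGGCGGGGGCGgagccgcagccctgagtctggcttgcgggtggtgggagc
The Dusp6 window, at chr10:99262981-99263230 on the plus strand, has none of the 4 patterns.
Dusp6: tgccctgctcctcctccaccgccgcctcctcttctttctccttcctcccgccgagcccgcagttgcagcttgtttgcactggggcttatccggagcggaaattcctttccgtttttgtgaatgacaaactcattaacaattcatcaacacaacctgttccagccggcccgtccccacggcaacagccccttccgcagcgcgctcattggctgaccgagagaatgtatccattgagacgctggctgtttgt
The Nab2 window, at chr10:127666704-127666953 on the minus strand, has none of them. It lies before the RefSeq start but inside the GENCODE span of Nab2, so the sequence before the GENCODE start is not shown.
Nab2: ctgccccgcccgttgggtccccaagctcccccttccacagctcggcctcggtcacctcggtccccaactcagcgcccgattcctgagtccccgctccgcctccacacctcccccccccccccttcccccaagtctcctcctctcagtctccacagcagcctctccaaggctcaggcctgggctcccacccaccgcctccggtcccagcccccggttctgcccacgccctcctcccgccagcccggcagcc
A match is a description of the letters in the window, and no binding was measured.

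Tnfrsf12a (ENSMUSG00000023905, chromosome 17, 23675445 to 23677468, minus strand) had the largest rise at 4 h among the genes named by size. It encodes Fn14, the receptor for the cytokine TWEAK, and is an injury-responsive gene in tubules. It had 14, 44, 348 and 46 UMIs at 0, 1, 4 and 12 h, or 6.83, 18.6, 76.0 and 14.5 CPM. Its log2 ratios were 1.45 (0.55 to 2.43), 3.48 (2.71 to 4.36) and 1.09 (0.20 to 2.06). All strata were higher at 4 h, with 4 against 97 UMIs in Slc12a3-positive, 0 against 66 in double-low and 10 against 185 in Aqp2-positive members. A UMI was found in 7.43%, 21.3%, 49.3% and 16.1% of members, and after thinning in 2.99% (0.819 to 7.47), 8.11% (4.26 to 13.7), 30.5% (24.9 to 36.7) and 6.67% (3.60 to 11.1). Thinned endothelial cells had 12.8%, 20%, 8.79% and 7.46%, and unthinned ones 8.48%, 8.62%, 5.18% and 5.33%, at median depths of 2483 to 2640 UMIs. The thinned endothelial shares rest on the 78, 65, 91 and 67 deepest cells, since 311 of 389, 341 of 406, 527 of 618 and 646 of 713 lay under the 5000 UMIs and were left out. At 4 h the thinned member share lay above the endothelial one beyond both intervals (3.87 to 16.6 for endothelial cells). At 0, 1 and 12 h the intervals overlapped, so the member shares there are not read as expression. Whether the endothelial shares are background for this gene was not tested. The rises at 1 and 12 h are of summed CPM, not of these shares.

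The injury list as a whole held 28 genes, of which 12, 16 and 12 were tested, with medians of -0.43, 0.67 and -0.10 at 1, 4 and 12 h. At 1 h Tnfrsf12a rose, while Lcn2, Anxa2, Capg and Gdf15 fell. At 4 h Tnfrsf12a, Krt19 and Myof rose and S100a6 fell, and at 12 h Tnfrsf12a rose and S100a6 fell. Beside these counts, 0.251%, 1.73% and 1.26% of all tested genes were higher and 1.23%, 0.659% and 0.979% lower at 1, 4 and 12 h. Krt19, an epithelial keratin gene, had 2, 17, 65 and 10 UMIs, and Myof, a membrane repair gene, had 18, 24, 100 and 30. The keratin gene Krt18 was at 108, 80.1, 215 and 98.6 CPM, with a 4 h ratio just short of 2-fold. Lcn2, the lipocalin gene used as an injury marker, had 45, 6, 143 and 39 UMIs, and Gdf15, a stress cytokine gene, had 44, 8, 188 and 41. Both had their lowest value at 1 h. Without Atp6v1g3-positive members, 7 genes of the list were tested at 1 h and none passed in either direction. In that subset Krt18, Tnfrsf12a and Myof were higher and S100a6 lower at 4 h, and at 12 h none was higher and S100a6 and Gdf15 were lower. The clusterin gene Clu was at 2487, 2991, 3858 and 3965 CPM (0.27, 0.63 and 0.67), and the osteopontin gene Spp1 was at 4878, 5322, 4859 and 4500.4 CPM. Havcr1 had 0, 1, 0 and 3 UMIs and Vcam1 had 1, 2, 0 and 0, too few to compare.

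The neighbouring Slc12a3-led cells are set beside the members because they too carry Kl. At 0, 1, 4 and 12 h they had Egr1 at 41.5, 603, 196 and 21.2 CPM, log2 ratios of 3.86, 2.24 and -0.97. Junb and Zfp36 had 1 h ratios of 1.12 and 1.20 there, against -1.35 and -1.06 in members. Dusp6 was at 34.5, 98.5, 184 and 80.7 CPM (1.52, 2.42 and 1.23), so its 1 h ratio was close to the 1.63 of members. Nab2 had ratios of 4.03, 3.27 and 1.45, and Hbegf, with 25, 1562, 1860 and 105 UMIs, had 6.02, 5.84 and 1.95. Tnfrsf12a was at 13.7, 145, 479 and 106 CPM (3.40, 5.13 and 2.94). Over genes tested in both kinds of cell, 16 were higher in members and 55 in Slc12a3-led cells at 1 h, with 6 in both, among 6973. At 4 h the counts were 108 and 269 with 49 in both, among 8150, and at 12 h 83 and 158 with 38 in both, among 7560. The 49 genes at 4 h are 45.4% of the members' genes and 18.2% of those of Slc12a3-led cells. With 1 library per time, the difference between the 2 kinds of cell was not tested.

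**Figure D4:**
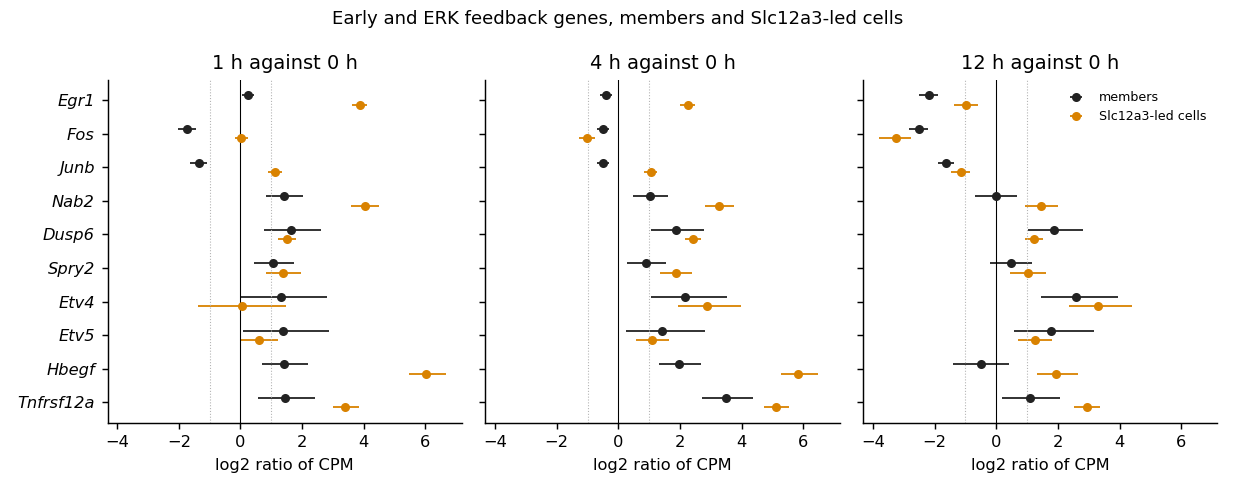
Log2 ratio to 0 h at 1, 4 and 12 h of Egr1, Fos, Junb, Nab2, Dusp6, Spry2, Etv4, Etv5, Hbegf and Tnfrsf12a in members and in Slc12a3-led distal cells, with exact conditional binomial 95% intervals and dotted lines at 2-fold. At 1 h Egr1 is at 0.24 in members and 3.86 in Slc12a3-led cells, and Dusp6 is at 1.63 and 1.52.

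Genes were also named by size at each time if they had at least 100 UMIs over both libraries, a UMI in at least 10 members of the higher library, and at least 2-fold difference in the same direction in female-called and male-called members. The rises reported at 4 h were those of Tnfrsf12a, Dact2, Aqp6, Hbegf, Tubb5, Dusp6, Stmn1, Id2 and Ehd4. Id2, an inhibitor of basic helix-loop-helix transcription factors, had 515, 1076, 3616 and 1324 UMIs at 0, 1, 4 and 12 h, or 251, 456, 790.1 and 417 CPM. Its log2 ratio was 0.86 (0.71 to 1.01), 1.65 (1.52 to 1.79) and 0.73 (0.58 to 0.88), and at 4 h it was 2.002, 1.87 and 1.34 in the Slc12a3-positive, double-low and Aqp2-positive strata. Dact2, a regulator of Wnt and TGF-beta signalling, had 8, 11, 98 and 56 UMIs (4 h 2.46, interval 1.42 to 3.71). Ehd4, an endocytic recycling gene, had 21, 22, 145 and 82 UMIs (4 h 1.63, interval 0.96 to 2.36).

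Among the 4 h rises, those of Aqp6 and Stmn1 were carried by few cells. Aqp6, an intracellular water channel gene of intercalated cells, had 101, 85, 1028 and 172 UMIs and a 4 h ratio of 2.19, which was -0.51 when members with 3 or more Atp6v1g3 UMIs were left out. Stmn1, the stathmin gene, had 43, 54, 309 and 86 UMIs with 94.2% of those at 4 h in 10 cells, and its ratio was -1.89 among members with at most 2 Aqp2 UMIs. Tubb5, a beta-tubulin gene, had 42, 59, 363 and 137 UMIs, and at 4 h a UMI in 103 members (35.8%). There 10 cells held 62.5% of its UMIs and the highest cell 20.1%. Its 4 h ratio was 1.95, or 1.76 without the highest cell of each library. By stratum the ratios were 1.60, 0.51 and 2.48 in Slc12a3-positive, double-low and Aqp2-positive members.

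The falls named at 4 h were S100a8, S100a9, Acsm2, Egf, Cndp2 and S100a6. S100a8 and S100a9, the calprotectin genes of neutrophils, had 280 and 370 UMIs at 0 h, and between 1 and 7 UMIs in each later library. They are among the transcripts that make the neutrophil marker sum, and they were named at 1 and 12 h too. These falls rest on few cells, since 10 cells held 97.9% of the S100a8 and 99.7% of the S100a9 UMIs at 0 h. S100a6 had a UMI in 10 members at 0 h and in 15 at 4 h. Acsm2, a mitochondrial acyl-CoA ligase gene of the proximal tubule, had 75, 33, 41 and 71 UMIs, and Cndp2, a dipeptidase gene, had 213, 64, 188 and 150. Cndp2 had a 4 h ratio of -1.34, which was 0.42 among members with no Slc34a1 UMI. At 1 h the falls were S100a9, S100a8, Cndp2, Keg1, Acsm2 and Kap, and no rise met the rule. Keg1 had 114, 35, 161 and 230 UMIs and Kap, the androgen-regulated transcript of proximal tubules, had 1407, 647, 3504 and 7306. The proximal marker sum was also lowest at 1 h, but Kap is part of that sum, so it is no separate observation.

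**Figure D5:**
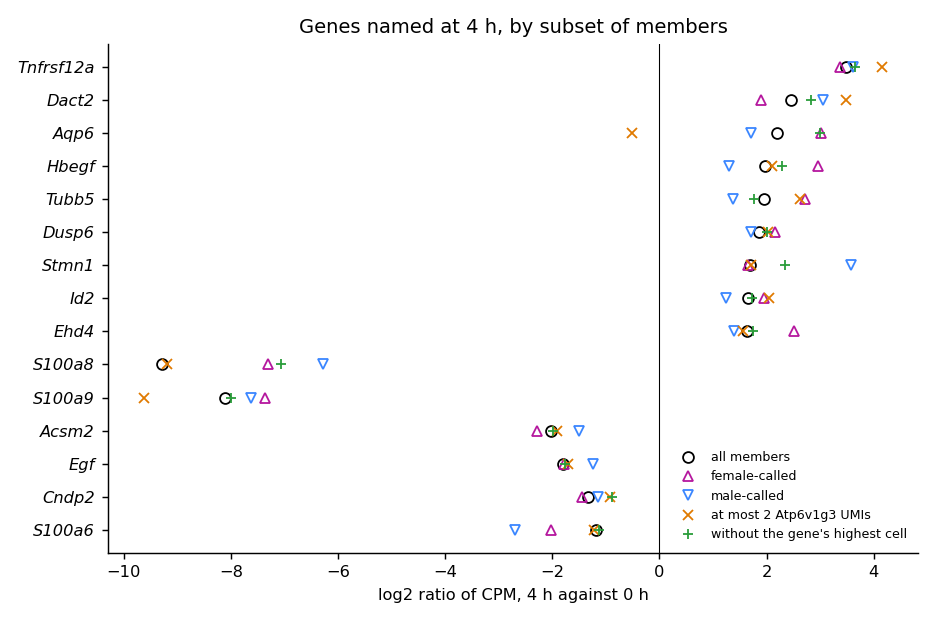
Log2 ratio of 4 h to 0 h for the genes named by size in the text, in all members, in female-called and male-called members, in members with at most 2 Atp6v1g3 UMIs, and without the cell that holds most of a gene's UMIs. Where a library has 0 UMIs it is set to the floor of 3 counts, which concerns S100a8 and S100a9. Tnfrsf12a is at 3.48 in all members, and Aqp6 goes from 2.19 to -0.51 when Atp6v1g3-positive members are left out. A 2-fold difference in the same direction in both sexes was a condition for naming, so that agreement is no finding.

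At 12 h the rises named by size were Tm4sf1, AY036118, Ache, Nrp1, A4galt, Pnp, Smim6 and Ptpn3. Pnp (ENSMUSG00000115338, chromosome 14, 50931082 to 50965237, plus strand), the purine nucleoside phosphorylase gene, had 157, 196, 1031 and 623 UMIs at 0, 1, 4 and 12 h, or 76.6, 83.0, 225 and 196 CPM. Its log2 ratio was 0.12 (-0.19 to 0.43), 1.56 (1.31 to 1.81) and 1.36 (1.10 to 1.62). At 4 h it was 1.57, 1.56 and 1.55 in the Slc12a3-positive, double-low and Aqp2-positive strata, and 1.57 and 1.56 in female-called and male-called members. Pnp overlaps other annotated genes on its strand (Pnp2 among them), so the counting could divide reads between them. A4galt, which encodes the synthase of the glycolipid globotriaosylceramide, was at 43.4, 50.8, 88.5 and 111 CPM (0.23, 1.03 and 1.36). Its 12 h ratio was 1.98 in Slc12a3-positive, 2.05 in double-low and 0.81 in Aqp2-positive members.

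Nrp1, a semaphorin and VEGF co-receptor gene, had 42, 42, 150 and 194 UMIs (12 h 1.58, interval 1.09 to 2.09), and Ache, the acetylcholinesterase gene, had 13, 15, 65 and 89 (2.14, interval 1.30 to 3.11). Smim6, a small membrane protein gene, had 90, 106, 379 and 356 UMIs (1.35), and the tyrosine phosphatase gene Ptpn3 had 49, 78, 170 and 165 (1.12). AY036118 had 16, 19, 98 and 245 UMIs (3.31), and its 12 h ratio was 3.11 in Slc12a3-led cells and 2.90 in proximal cells. Tm4sf1, a surface protein gene abundant in endothelium, had 5, 2, 58 and 132 UMIs, with those at 12 h in 13 cells, and the endothelial marker sum was 151 CPM at 12 h against 40.5 CPM at 0 h. The named falls at 12 h were S100a8, S100a9, Fos, Sgk1, Egr1 and Zfp36, described above.

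Of the metallothionein and zinc list, 5 of 6 genes were tested, and Mt1 and Mt2, which encode zinc-binding proteins that respond to metals and glucocorticoids, rose at 4 h. Mt1 was at 466, 703, 1191 and 490.3 CPM, with a 4 h ratio of 1.35 (1.26 to 1.46), and Mt2 at 73.1, 105, 174 and 80.9 CPM, with 1.25 (1.00 to 1.51). In proximal cells the 4 h ratios were 3.48 and 3.97. Mt1 was 1.40, 1.54 and 1.29 in the Slc12a3-positive, double-low and Aqp2-positive strata, and both genes were within 2-fold of 0 h at 1 and 12 h over all members. By sex the 4 h ratios of Mt1 and Mt2 were 0.58 and 0.19 for cells called female, where neither passed, and 1.79 and 2.09 for cells called male, where both did. Of 15 genes that respond to glucocorticoids or FoxO factors, 11, 11 and 10 were tested. Tsc22d3 and Ddit4 fell at 1 h, and Sgk1 and Pdk4 fell at 4 and 12 h, with list medians of -0.17, -0.43 and -0.55. The shares lower over all tested genes were 1.23%, 0.659% and 0.979% at 1, 4 and 12 h. Pdk4, the kinase gene that restrains pyruvate oxidation, had 52, 69, 31 and 15 UMIs (4 h -1.90, interval -2.60 to -1.24).

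Of the clock genes, 2, 3 and 2 of 5 in the Bmal1 phase and 4, 6 and 4 of 10 in the Dbp phase were tested. Cry1, a clock repressor gene, had 10, 12, 84 and 6 UMIs and rose at 4 h (1.91, interval 0.96 to 3.02), as did Per2, with 14, 15, 73 and 8 UMIs (1.22). The nuclear receptor genes Nr1d1 and Nr1d2 fell at 4 h, with 39, 35, 13 and 61 and with 27, 24, 24 and 63 UMIs. Dbp, a clock output factor gene, had 16, 10, 18 and 79 UMIs and rose at 12 h (1.67, interval 0.89 to 2.55). The hour of the day of each collection is not given in the sources used here, so time after injection and time of day cannot be told apart.

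Over all members, none of the 12 heat shock genes rose or fell, with medians of -0.01, 0.28 and -0.04. Nor did any of the 33 translation initiation genes, of which 31, 33 and 33 were tested (-0.10, 0.15 and 0.01). For lists this short, 0 says little beside the small shares over all genes given above. Within one sex, Dnajb1 was higher at 1 h in female-called members, and Hspa5 was higher and Dnajb1 lower at 4 h in male-called members. Of 26 TNF and NF-kB genes, 6, 9 and 5 were tested, and their medians were 0.00, 0.43 and -0.08 beside -0.06, 0.04 and -0.04 over all genes. Nfkbia, the inhibitor of NF-kB, fell at 1 h from 73 to 38 UMIs, and the chemokine gene Cxcl16 rose at 4 h, with 20, 9, 121 and 22 UMIs (1.44). Of 15 hormone receptor genes, 10, 11 and 10 were tested. The prostaglandin receptor gene Ptger1 fell at 1 h from 59 to 24 UMIs, and the vasopressin receptor gene Avpr1a fell at 12 h, with 39, 52, 145 and 29 UMIs.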

How the data were processed

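Cells of dissociated mouse kidneys were profiled with droplet-based single-cell RNA sequencing (3' chemistry), 1 library per time. The authors deposited raw UMI counts per gene and barcode, not normalised, made with Cell Ranger 3.1.0 and STAR on mm10, per the submitters' processing notes. Seurat is also named there. The annotation release is not given in the sources used here. Positions came from GENCODE vM21 (GRCm38) by gene ID, with 99.9% of 31053 IDs found, and promoter windows from RefSeq (GRCm38.p6).

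Members were chosen by raw counts of the rule genes, and no clustering was used. The members and gene lists were chosen with earlier results of these data known. UMIs were summed per library over members, scaled to CPM with exact Poisson intervals, and compared with 0 h as log2 ratios with exact conditional binomial intervals (scipy 1.17.1, numpy 2.4.6, pandas 2.3.3, Python 3.11.15). Shares have exact Clopper-Pearson intervals. All intervals are at 95%, and UMIs within a library share animals and preparation, so they cover counting error only. A gene with fewer than 50 UMIs over the 2 libraries compared was not tested, and for a library at 0 the floor was 3 counts. Total UMIs over members ranged from 2050822 to 4576691 per library. Doublets were called per library with Scrublet in scanpy 1.11.5, at an assumed 0.8% per 1000 cells, and kept.

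Genes were named by size under the limits given beside them, with up to 10 rises and 6 falls a time. The result for 1 gene that met these limits is not reported here. Mitochondrial, ribosomal and sex-linked genes were kept out of that naming. The computation was tested on simulated counts. Principal-type cells numbered 108 in all and were not used as a comparison. Figures were drawn with matplotlib 3.10.9. Alternatives varied the rule, the scale, the UMI minimum, doublets and sex.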

Additional observations from a re-analysis of the deposited data

Results flagged for a closer look

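Some log2 ratios to 0 h passed 2-fold in opposite directions in female-called and male-called members. None of these differences was tested, since each library pools its animals. Sgk1 at 1 h was 1.09 in female-called and -1.22 in male-called members. Avpr2, the vasopressin receptor gene of principal cells, was 1.11 and -1.22 at 1 h. At 4 h Egr1 was 1.35 and -1.27, and Fos was 1.27 and -1.68. Beside these values, the Aqp2-positive stratum held 14 female-called and 33 male-called cells at 0 h, 28 and 14 at 1 h, and 31 and 51 at 4 h. Kap at 12 h was 2.66 in female-called and -1.02 in male-called members, and 72.7% of its UMIs at 12 h came from 1 cell.

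Members and Slc12a3-led cells also passed 2-fold in opposite directions, and these differences were not tested either. Junb at 1 h was -1.35 in members and 1.12 in Slc12a3-led cells. Zfp36 at 1 h was -1.06 and 1.20. Kap at 12 h was 1.75 and -2.07.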

How the results depend on the processing

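Counts of genes below are in the order higher then lower. The counts at 1 h were 18 and 88, and became 78 and 38 among members with at most 2 Aqp2 UMIs, 54 and 15 in female-called members, and 34 and 212 in male-called members. The 1 h count lower was 44 with a mitochondrial limit of 25%, 47 with at most 2 Atp6v1g3 UMIs and 56 with no Slc34a1 UMI. A like count need not hold the same genes. With the limit of 25%, 18 of 2837 tested genes were higher at 1 h, and 0 were shared with the main 18. Shared with the main 18 were 3 of the 78 with at most 2 Aqp2 UMIs and 0 of the 34 in male-called members. Without doublet calls 12 of 16 were shared. At 4 h, 60 of 134 higher genes with the limit of 25% were shared with the main 147. The 1 h count higher was 30 with cells weighted equally. At 4 h (147 and 56) the counts higher were 253 in female-called and 79 in male-called members. The 4 h counts lower were 87 with the limit of 25%, 145 in male-called members, 90 scaled without mitochondrial UMIs and 99 with cells weighted equally. At 12 h (98 and 76) they were 62 and 45 in female-called and 44 and 145 in male-called members, and the count lower was 118 without doublet calls, 48 with at most 2 Aqp2 UMIs and 145 with cells weighted equally. A minimum of 200 UMIs gave 0 and 20, 38 and 11, and 20 and 16 at 1, 4 and 12 h, and no minimum gave 81 and 362, 247 and 245, and 261 and 267. The share of members at 0, 1, 4 and 12 h was 0.611%, 0.517%, 1.40% and 1.30% with the limit of 25%, 0.830%, 0.992%, 1.73% and 1.44% with at most 2 Slc12a3 UMIs, and 0.919%, 1.16%, 1.63% and 1.77% with at most 2 Aqp2 UMIs. Thinned before the rule it was 1.85% at 0 h.

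Among named genes, 4 ratios at 4 h changed sign: Aqp6 (-0.51 with at most 2 Atp6v1g3 UMIs), Cndp2 (0.42 with no Slc34a1 UMI), Egf (0.66 with the limit of 25%) and Stmn1 (-1.89 with at most 2 Aqp2 UMIs). The cause was not tested. The limits on Atp6v1g3 and Slc34a1, strata weighted as at 0 h and leaving out each gene's highest cell were chosen after seeing the data. No paired analysis was possible because each group has 1 library. With 148 members at 0 h, genes of low level were limited by depth.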
